A study of Mus musculus with 4 samples.

Results

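Transcripts of 9 early response transcription factor genes were examined by RNA sequencing of sorted mouse bone marrow cells enriched for hematopoietic stem cells (HSCs). The genes are Egr1, Egr2 and Egr3, Nr4a1, Nr4a2 and Nr4a3, and Klf2, Klf4 and Klf6, chosen by name, and all 9 are among the 23450 genes listed. Long-term HSCs (LT-HSC) were gated as CD48-, CD150+, CD34- and CD9 high, and short-term HSCs (ST-HSC) as CD48-, CD150+ and CD9 low, where CD9 is a tetraspanin and CD34 is not named in the second gate. Each group had 2 libraries of 2000 cells, called LT1 and LT2, and ST1 and ST2. The labels give no strain, age, sex, treatment or pooling, and do not say whether LT1 and LT2, or ST1 and ST2, are of different mice. Every p-value below thus rests on the spread between 2 libraries a group, which may be technical. The test takes this spread partly from all tested genes, so an SE, interval or p is not set by the gaps of its own gene alone.

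Early response genes are transcribed within minutes of a signal, by factors already present in the cell, and without new protein synthesis. EGR proteins are zinc finger activators that bind GC-rich sites and are held in check by the corepressors NAB1 and NAB2. NR4A proteins are orphan nuclear receptors whose activity follows their abundance rather than a ligand. KLF proteins share a zinc finger domain that binds GC and CACCC boxes; KLF2 governs quiescence and migration in lymphocytes and endothelium, KLF4 acts in monocyte differentiation and pluripotency, and KLF6 responds to injury. EGR1 and the NR4A receptors have been described as restraints on the division of HSCs. The same genes are also known to respond to tissue dissociation and cell sorting.

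Promoter sequence is shown for the Nr4a genes, because these close relatives carry the same short element at different positions while their transcripts differed from well read to unread, and for Egr2, a nearly unread gene with a serum response type element. The sequences are the 250 bases before the annotated start, from RefSeq on GRCm38.p6, a later build than that of the expression values. Of the 9 genes, 7 matched an entry, with 11 windows in all, and Egr1 and Egr3 were not searched. In the Nr4a sequences, capitals mark the half-site of the cAMP response element, TGACG, which reads CGTCA where it lies on the opposite strand. Each of the 3 Nr4a windows held 4 such half-sites. The half-site was not particular to them: Klf2 and Klf4 had 1 each, and the Egr2 window shown had 2, not in capitals. The Klf6 window had 0. Of all 32851 promoter windows of this length, 17.8% held at least 1, and the share holding 4 is not given.
Nr4a1, chr15:101266596-101266845, plus strand: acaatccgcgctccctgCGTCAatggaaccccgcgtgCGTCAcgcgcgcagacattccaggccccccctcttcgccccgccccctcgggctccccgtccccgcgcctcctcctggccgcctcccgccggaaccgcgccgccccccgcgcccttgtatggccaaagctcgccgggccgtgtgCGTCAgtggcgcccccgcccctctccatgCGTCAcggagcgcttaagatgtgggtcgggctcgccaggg
Nr4a2, chr2:57124004-57124253, minus strand: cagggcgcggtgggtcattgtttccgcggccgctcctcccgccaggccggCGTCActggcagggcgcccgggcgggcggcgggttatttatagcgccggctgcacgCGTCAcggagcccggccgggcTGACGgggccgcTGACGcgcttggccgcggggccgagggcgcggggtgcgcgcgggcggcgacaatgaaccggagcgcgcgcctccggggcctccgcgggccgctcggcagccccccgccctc
Nr4a3, chr4:48045055-48045304, plus strand: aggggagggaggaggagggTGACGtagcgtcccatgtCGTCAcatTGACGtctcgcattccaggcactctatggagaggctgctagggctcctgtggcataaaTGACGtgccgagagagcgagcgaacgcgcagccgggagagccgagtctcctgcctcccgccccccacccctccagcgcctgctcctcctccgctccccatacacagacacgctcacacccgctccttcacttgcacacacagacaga
Egr2, chr10:67537619-67537868, plus strand: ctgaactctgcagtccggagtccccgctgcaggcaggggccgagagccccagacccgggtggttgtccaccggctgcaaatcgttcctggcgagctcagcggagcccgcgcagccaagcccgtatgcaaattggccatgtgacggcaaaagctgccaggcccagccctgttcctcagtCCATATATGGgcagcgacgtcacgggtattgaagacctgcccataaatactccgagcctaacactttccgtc
In the Egr2 sequence, capitals mark a CArG box, the binding sequence of serum response factor, which begins 72 bases before the start. A CArG box was present in 1.47% of all windows and, among the 7 matched genes, in those of Egr2 only (4 of its 5 windows). Some of these Egr2 windows overlap and hold the same box, and whether Egr1 has one was not searched. The EGR site GCGGGGGCG occurred in the windows of Nr4a1, Klf2 and Klf4, against 2.57% of all windows. The GC box GGGCGGGGC occurred once for Nr4a1, at 2 places for Klf2 and at 3 for Klf4, against 9.94% of windows with any, and the NR4A element AAAGGTCA in none of the 11 windows, against 1.34%. Both strands were searched, and an EGR site can overlap a GC box. A match of letters is a description of the window and not a bound site.

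Reads recovered from the deposited values numbered 13079510 (LT1), 16158532 (LT2), 15045214 (ST1) and 14837799 (ST2). Of 9 genes listed as HSC markers, 8 were analysed here and all 8 were read in each library, with a summed level of 2795 and 2994 CPM (reads scaled to a common library total) in long-term HSCs and 1921 and 2087 CPM in short-term HSCs. The level of Cd48, whose protein both gates exclude, was 0.229 and 0.186 CPM in long-term HSCs but 16.5 and 38.8 CPM in short-term HSCs. Flt3, a progenitor marker, was at 6.50 and 22.0 CPM in long-term HSCs and 39.0 and 69.6 CPM in short-term HSCs. Cd34, whose protein the long-term gate excludes, was at 134 and 201 CPM in long-term HSCs and 324 and 430 CPM in short-term HSCs. In bulk libraries such as these, fewer cells of a type and less RNA per cell cannot be told apart.

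Of the 9 factors, Egr1 was the only one with an unadjusted p under 0.05 (2.92% of tested genes were higher and 3.59% lower at that p), and none passed after adjustment over all genes. Without ST1, the unadjusted p was 0.0837 for Egr1 and 0.0314 for Nr4a2, with limma adjusted p-values that round to 1. Egr1, Nr4a2 and Klf2 lay higher in both long-term libraries than in either short-term library, Nr4a1, Klf4 and Klf6 overlapped between the groups, and Egr2, Egr3 and Nr4a3 were at or near the lowest value in the data, which stands for 0 or 1 read. The test was limma on log2(CPM + 1) over 12608 genes, of which 0 (0%) passed an adjusted p under 0.05, with 820 at an unadjusted p under 0.05 and a smallest adjusted p of 0.718. Limma-voom on the recovered reads also called 0, with 595 at the unadjusted threshold. The 6 read factors each had at least 1 CPM in all 4 libraries, so the filter on low values did not depend on the group. For 3 of these 6, both long-term libraries exceeded both short-term libraries, against 16.1% of all tested genes, and 0 of 6 lay below both, against 17.5%. With 1 library left out, the count above was 6 without LT1 or ST2, against 32% and 28.9% of all tested genes, and 3 without LT2 or ST1, against 37.5% and 31%. The median log2 fold change of the 6 was 0.89, with a range of 0.28 to 2.66, beside a median of -0.01 and quartiles of -0.52 and 0.43 over all tested genes. Between libraries of the same number, all 6 were higher in long-term HSCs in both pairs, against 24.5% of all tested genes, although nothing in the labels says that the number pairs the libraries.

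**Figure D1:**
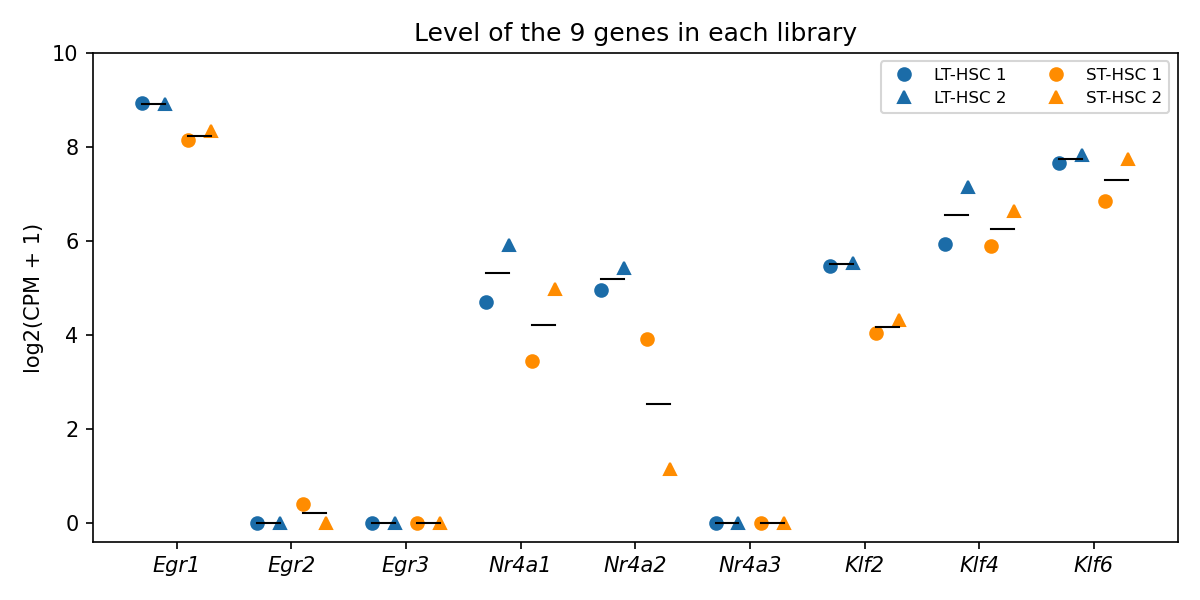
Level of each of the 9 genes as log2(CPM + 1) in the 4 libraries, with blue for LT-HSC, orange for ST-HSC, circles for library 1, triangles for library 2 and black lines for the mean of each group. The groups are apart for Egr1, Nr4a2 and Klf2, overlap for Nr4a1, Klf4 and Klf6, and lie at or near 0 for Egr2, Egr3 and Nr4a3.

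Among the Egr genes, Egr1 carried nearly all reads. Its level was 486 CPM in LT1, 480 in LT2, 281 in ST1 and 323 in ST2. Both long-term libraries were above both short-term libraries, and the gap between the groups exceeded the gaps within them, which were 0.02 in long-term HSCs and 0.20 in short-term HSCs on the log2 scale. The group means were 483 ± 4.50 CPM and 302 ± 29.4 CPM (mean ± SD, n = 2 each), a 1.60-fold ratio of means. The log2 fold change was 0.68 ± 0.18 (SE), with a 95% interval of 0.23 to 1.13, an unadjusted p of 0.0118 and a limma adjusted p of 0.718. By unadjusted p, Egr1 ranked 192 among the 12608 genes. With any 1 library left out, its log2 fold change stayed between 0.58 and 0.78.

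Egr2, a regulator of myelination and of lymphocyte tolerance, had 5 reads (0.332 CPM) in ST1 and was at the lowest value in the other 3 libraries. Egr3, which acts with EGR2 in lymphocytes, was at the lowest value in all 4. The floor of 3 reads, which a count of 0 allows, equals 0.186 to 0.229 CPM over the libraries, so the data do not bound Egr3 below that level. Egr4 was also at the lowest value in all 4 libraries. No fold change is given for these genes.

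Among the orphan receptors, Nr4a1 and Nr4a2 were read in every library, and Nr4a3 was at the lowest value in all 4. Nr4a1, also known as Nur77, was at 25.2 CPM in LT1, 59.5 in LT2, 9.97 in ST1 and 30.6 in ST2. ST2 exceeded LT1, so the groups overlapped. The means were 42.3 ± 24.2 CPM in long-term HSCs and 20.3 ± 14.6 CPM in short-term HSCs (mean ± SD, n = 2 each). The log2 fold change was 1.10 ± 0.88 (SE), with a 95% interval of -1.17 to 3.36 and a limma adjusted p of 0.909, and was 0.33 when ST1 was left out and 1.86 when ST2 was. Without LT2 it was 0.49 and without LT1 it was 1.70.

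Nr4a2, also known as Nurr1, had the widest range of the 6 read factors on the log2 scale. It was at 30.0 CPM in LT1, 41.8 in LT2, 14.1 in ST1 and 1.21 in ST2, where it rested on 18 reads. Both long-term libraries were above both short-term libraries, yet the gap of 2.77 between the short-term libraries (log2) was larger than the log2 fold change of 2.66 ± 1.23 (SE). The means were 35.9 ± 8.34 CPM in long-term HSCs and 7.65 ± 9.11 CPM in short-term HSCs (mean ± SD, n = 2 each), the 95% interval was -0.50 to 5.82, and the limma adjusted p was 0.798. The size of the difference turned on 1 library: the log2 fold change was 1.27 without ST2 and 4.04 without ST1. Nr4a3 gave no value above that of 1 read, and its promoter window holds 4 cAMP half-sites, as do those of its relatives.

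Summed over the Nr4a genes, the level was 55.3 and 101 CPM in long-term HSCs and 24.1 and 31.8 CPM in short-term HSCs. Both long-term sums exceeded both short-term sums, a pattern that 16.1% of all tested genes showed singly. Of the 2 read genes, Nr4a1 overlapped between the groups, and Nr4a2 was at 1.21 CPM in ST2.

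Among the 3 Klf factors, Klf2 showed the most even values within groups. Its level was 43.4 CPM in LT1, 45.4 in LT2, 15.5 in ST1 and 18.9 in ST2. The groups did not overlap, and the gaps within them were 0.07 in long-term HSCs and 0.27 in short-term HSCs on the log2 scale. The means were 44.4 ± 1.46 CPM and 17.2 ± 2.39 CPM (mean ± SD, n = 2 each), a 2.58-fold ratio of means. The log2 fold change was 1.33 ± 0.62 (SE), with a 95% interval of -0.26 to 2.91, an unadjusted p of 0.0848 and a limma adjusted p of 0.800. With 1 library left out, the log2 fold change ranged from 1.19 to 1.46.

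Klf4 was at 60.3 CPM in LT1, 141 in LT2, 58.5 in ST1 and 98.2 in ST2. The groups overlapped, and in each group library 2 was the higher. The log2 fold change was 0.28 ± 0.56 (SE), with a 95% interval of -1.16 to 1.72 and a limma adjusted p that rounds to 1. Its sign turned negative without LT2 (-0.33) and without ST1 (-0.09), and it was 0.89 without LT1 and 0.65 without ST2.

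Klf6 was at 202 CPM in LT1, 225 in LT2, 115 in ST1 and 214 in ST2. Here 1 library, ST1, stood below the other 3, and ST2 lay between the long-term libraries. The log2 fold change was 0.44 ± 0.37 (SE), with a 95% interval of -0.51 to 1.38 and a limma adjusted p of 0.915. It was -0.01 without ST1 and 0.88 without ST2, with values of 0.52 and 0.36 without LT1 and LT2.

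**Figure D2:**
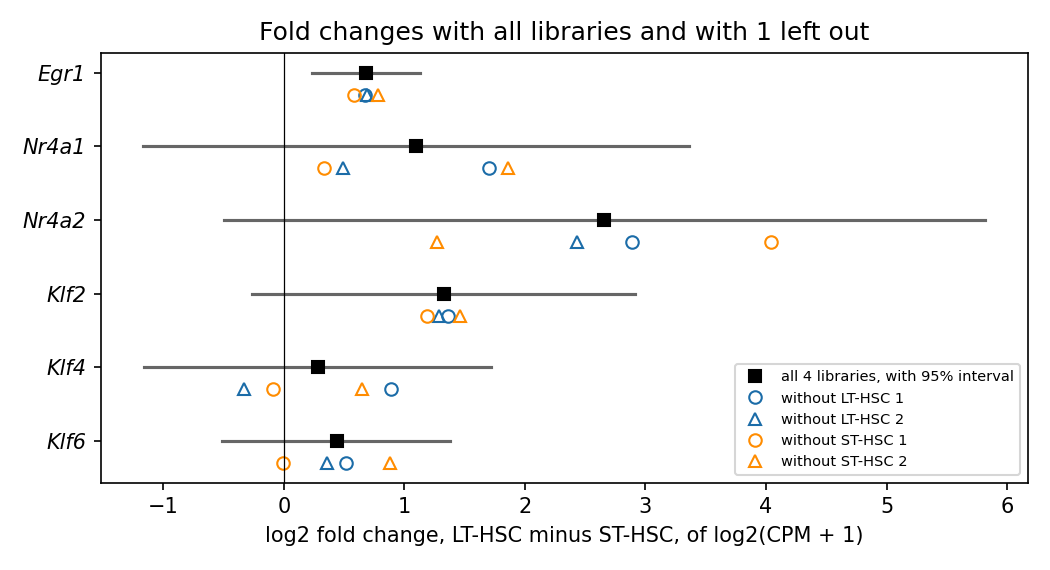
Log2 fold change of LT-HSC minus ST-HSC on the log2(CPM + 1) scale for the 6 tested factors. Squares with bars are the fit on all 4 libraries with its 95% interval, and open symbols are the fits with 1 library left out. The symbols of Egr1 and Klf2 lie close together and above 0, those of Nr4a2 run from 1.27 to 4.04, and those of Klf4 and Klf6 reach 0 or below.

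The gaps within groups can be read against those of other genes. Over all tested genes, the median absolute gap between the 2 libraries of a group was 0.68 in long-term HSCs and 0.56 in short-term HSCs on the log2 scale, with upper quartiles of 1.55 and 1.27. Egr1 and Klf2 had smaller gaps than these medians in both groups. Nr4a1 had larger gaps in both (1.20 and 1.53), as had Klf4 (1.22 and 0.74). In short-term HSCs the gaps of Nr4a1 and Nr4a2 passed the upper quartile, and that of Klf6 (0.89) passed the median. For 4 of the 6 factors (Nr4a1, Klf2, Klf4 and Klf6), library 2 was above library 1 in both groups, against 24.4% of all tested genes.

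Levels of different genes were compared per kilobase of the longest coding transcript in the GENCODE M21 set, as a mean over the 4 libraries. Egr1 was highest at 87.5 CPM per kb, followed by Klf6 at 44.7, Klf4 at 29.6, Klf2 at 16.7, Nr4a1 at 12.3 and Nr4a2 at 6.11. The lowest Egr1 library (62.7 CPM per kb) stayed above the highest Klf6 library (53.3), whereas each later neighbour in this order overlapped the next. Klf2 exceeded Klf4 in LT1 (23.5 against 19.9 CPM per kb), and Nr4a1 exceeded Klf2 in ST2 (12.0 against 10.2). Among all genes with a length, Egr1 stood between percentiles 91.2 and 96.5 of the level per kb in the 4 libraries, and Nr4a2 between 47.6 and 69.1.

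Of the 15 further Egr and Klf genes, 10 were tested, with a median log2 fold change of 0.21. Both long-term libraries exceeded both short-term libraries for 3 and lay below them for 2, against 16.1% and 17.5% of all tested genes. The median was -0.40 without LT2 and -0.22 without ST1. Klf10, a target of TGF-beta signalling, had the highest level of all 17 Klf genes per kb, at 73.5 and 84.8 CPM per kb in long-term HSCs and 54.8 and 67.7 in short-term HSCs, with a log2 fold change of 0.37 ± 0.24 (SE). Klf1, the erythroid factor, went the other way, at 0.382 and 0.186 CPM in long-term HSCs and 27.5 and 9.50 CPM in short-term HSCs (unadjusted p = 0.0171 by limma, not passing after adjustment). Klf11 was at 32.2 and 24.1 CPM in long-term HSCs, and at 0.332 and 18.9 CPM in ST1 and ST2. Klf3, a repressor, had a log2 fold change of 0.81 ± 0.53 (SE). Klf15 and Klf17 were at the lowest value in all 4 libraries. Klf2, Klf4 and Klf6 together made up 45.3% and 46.2% of the family level per kb in long-term HSCs, and 33.3% and 43.6% in short-term HSCs.

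**Figure D3:**
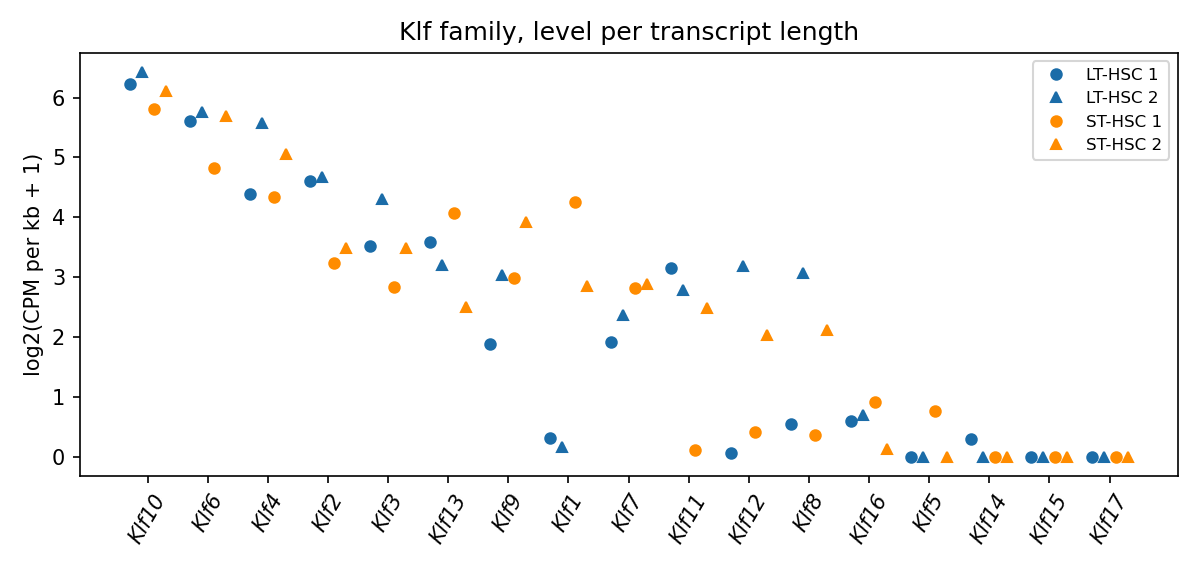
Level of the 17 Klf genes as log2(CPM per kb of transcript + 1) in the 4 libraries, ordered by mean, with blue for LT-HSC, orange for ST-HSC, circles for library 1 and triangles for library 2. Klf10, Klf6 and Klf4 lead, Klf1 is read in short-term HSCs and nearly unread in long-term HSCs, and Klf8 and Klf12 are higher in library 2 of each group.

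Genes that act before and after these factors were read from lists. Of the upstream factors, 18 of 19 genes were analysed here and tested, with a median log2 fold change of 0.11 (-0.02 without ST1). Of the 18, 0 lay above and 1 below both short-term libraries, against 16.1% and 17.5% of all tested genes. The 1 gene below was Creb1, whose protein binds the cAMP response element, at 58.9 and 81.7 CPM in long-term HSCs and 153 and 147 CPM in short-term HSCs, a log2 fold change of -1.10 ± 0.34 (SE, unadjusted p = 0.0211 by limma). Its coactivator gene Crtc2 had 0.91 ± 0.63 (SE), the myocyte enhancer factor gene Mef2d 0.70 ± 0.57 (SE), and Mkl2, a coactivator of serum response factor, 0.57 ± 0.50 (SE).

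The corepressors and feedback inhibitors numbered 18, with 17 tested and a median of 0.30 (0.54 without ST2). Both long-term libraries exceeded both short-term libraries for 7 of the 17 and lay below them for 1, against 16.1% and 17.5% of all tested genes. Nab1, the EGR corepressor gene, was at 141 and 144 CPM in long-term HSCs and 71.7 and 85.4 CPM in short-term HSCs. Its log2 fold change was 0.86 ± 0.31 (SE), with an unadjusted p of 0.0371 by limma. Its relative Nab2 was at 29.0 and 9.47 CPM in long-term HSCs and 11.1 and 7.41 CPM in short-term HSCs, so the groups overlapped. Dusp1, a MAP kinase phosphatase gene, had 0.61 ± 0.26 (SE), and Spry1, an inhibitor of receptor tyrosine kinase signalling, 1.66 ± 0.97 (SE). Socs3, an inhibitor of cytokine signalling, was the gene below both, with at most 0.153 CPM in long-term HSCs and 2.86 and 7.41 CPM in short-term HSCs.

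Of the 8 AP-1 genes, whose products form the other main class of early response factors, 2 lay above and 1 below both short-term libraries. Over all tested genes these shares were 16.1% and 17.5%. The list had a median of 0.17 (0.03 without ST2). Fos was at 494 and 422 CPM in long-term HSCs and 402 and 422 CPM in short-term HSCs, and Jun at 517 and 502 CPM against 392 and 501 CPM. Junb was at 68.1 and 72.9 CPM in long-term HSCs and 35.2 and 29.6 CPM in short-term HSCs (log2 fold change 1.10 ± 0.46 SE). Atf3, a stress-induced member, was at the lowest value in long-term HSCs and at 4.39 and 2.43 CPM in short-term HSCs. If the lowest value stands for 0 reads, a floor of 3 reads per library puts Atf3 at least 16.4-fold lower in long-term HSCs, or at least 11.7-fold without ST1. A count of 1 read would allow a smaller difference, and the 16.4-fold bound takes the short-term values as measured. The list median was 0.17 with Atf3 at that bound too, which it had to be, since Atf3 already had the lowest fold change of the list. Fosl1 had 1.16 ± 1.33 (SE).

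Of 30 other early response genes, 28 were analysed here and 25 tested, with a median of 0.34 (0.03 without ST2). Among the 25, 7 lay above and 4 below both short-term libraries, against 16.1% and 17.5% of all tested genes. Plk2, a polo-like kinase gene, was at 116 and 129 CPM in long-term HSCs and 25.4 and 12.6 CPM in short-term HSCs, a log2 fold change of 2.70 ± 0.54 (SE, unadjusted p = 0.00417 by limma). Trib1, a pseudokinase gene, was at 37.8 and 38.4 CPM in long-term HSCs, at 6.65 CPM in ST1 and at the lowest value in ST2. Gadd45a, a DNA damage response gene, was at 0.535 and 13.2 CPM in long-term HSCs and 24.5 and 65.5 CPM in short-term HSCs. Rgs1, a regulator of G protein signalling, had -0.67 ± 0.30 (SE). Ier5l and Ctgf were at the lowest value in all libraries. None of these genes passed after adjustment over all genes.

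Genes described elsewhere as targets of the 9 factors did not share a direction. Of 13, 11 were tested, with 1 above and 2 below both short-term libraries, against 16.1% and 17.5% of all tested genes. Their median was 0.22, and -0.71 without ST2. S1pr1, a sphingosine-1-phosphate receptor gene activated by KLF2 in lymphocytes, was at 77.4 and 80.6 CPM in long-term HSCs and 19.6 and 26.4 CPM in short-term HSCs, a log2 fold change of 1.75 ± 0.50 (SE, unadjusted p = 0.0162 by limma). For Tgfb1 the log2 fold change was -1.65 ± 1.22 (SE). Cebpa was at the lowest value in all libraries.

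**Figure D4:**
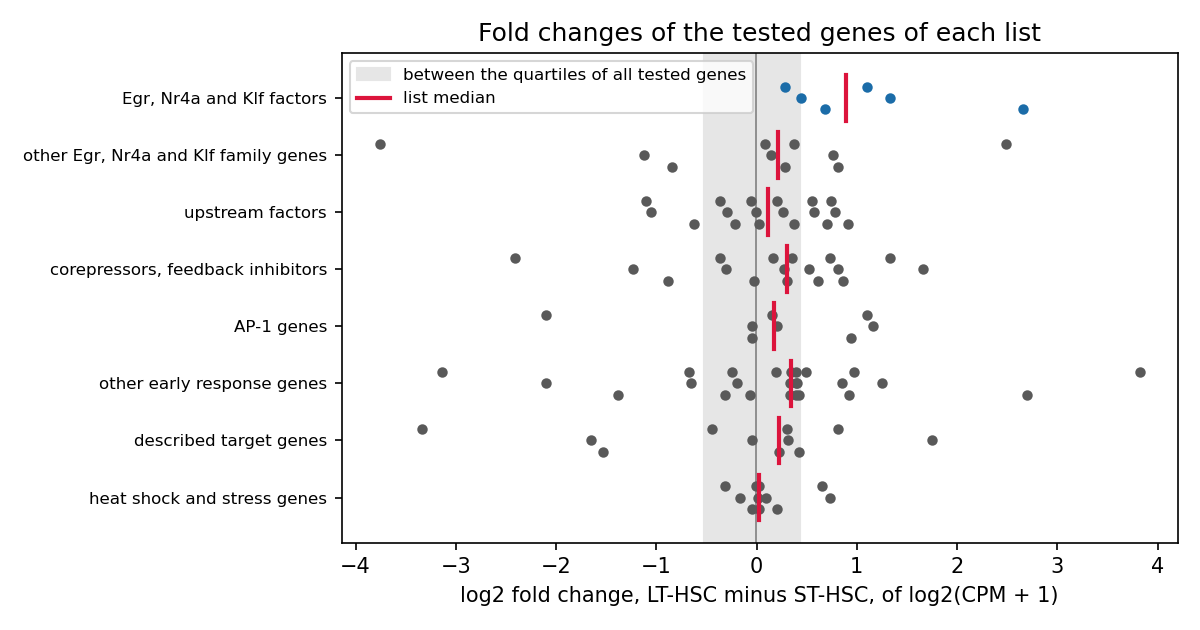
Log2 fold change of LT-HSC minus ST-HSC on the log2(CPM + 1) scale for the tested genes of each list, with 1 point per gene, red lines at list medians and a grey band between the quartiles of all tested genes (-0.52 to 0.43). All 6 tested Egr, Nr4a and Klf factors lie above 0 with a median of 0.89, and the other 7 lists have medians from 0.02 to 0.34. The points of Klf4 and Klf6 fall to 0 or below with single libraries left out.

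Markers of handling stress and of other cell types are given beside these factors. Of 12 heat shock and stress genes, 11 were tested with a median of 0.02 (-0.05 without LT1 or ST1). Hspb1, the gene not tested, was at 88.7 CPM in LT1 and at the lowest value in LT2, ST1 and ST2. Among the 11, 1 lay above and 1 below both short-term libraries, against 16.1% and 17.5% of all tested genes. The summed level of the 12 genes was 4392 and 4033 CPM in long-term HSCs and 3796 and 4363 CPM in short-term HSCs. Those with the smallest p were Hspa1b (log2 fold change 0.73 ± 0.46 SE), Hspa1a (0.65 ± 0.52 SE), whose near-identical sequences make their split uncertain, Hspd1 (-0.31 ± 0.27 SE) and Hspa5 (0.20 ± 0.22 SE). Monocyte-macrophage markers, of which 6 of 7 were analysed here, summed to 228 and 201 CPM in long-term HSCs and 270 and 229 CPM in short-term HSCs, with Csf1r at 33.0 and 9.09 CPM against 18.1 and 39.0 CPM. Neutrophil markers summed to 52.8 and 52.0 CPM in long-term HSCs and to 313 and 56.1 CPM in short-term HSCs, so ST1 stood apart. T and NK cell markers summed to 23.5 and 98.7 CPM in long-term HSCs and 64.4 and 102 CPM in short-term HSCs. Cd3e and Cd3d were at the lowest value in all libraries, and Cd3g was read in long-term HSCs only, at 1.53 and 0.929 CPM. Klrb1c lay above both short-term libraries, at 8.79 and 59.7 CPM against the lowest value (ST1) and 4.65 CPM (ST2). Nkg7 lay below both, at 13.2 and 38.1 CPM against 64.4 and 97.3 CPM. B cell markers, of which 4 of 5 were analysed here, summed to 209 and 130 CPM against 145 and 105 CPM, nearly all from Cd79b, with Pax5 at the lowest value. Erythroid markers summed to 289 and 206 CPM against 319 and 278 CPM, megakaryocyte markers to 96.0 and 79.5 CPM against 256 and 193 CPM, and endothelial markers to 356 and 334 CPM against 276 and 321 CPM. In both long-term libraries the endothelial sum was higher, and the monocyte-macrophage, neutrophil and megakaryocyte sums were lower, than in either short-term library. The other 3 sums overlapped. Of 5 tested endothelial genes, 2 lay above both short-term libraries and 1, Tie1, below both, against 16.1% and 17.5% of all tested genes. Of 4 tested monocyte-macrophage genes, 1 lay above and 2 below. The 1 above was Lyz2, at 153 and 147 CPM in long-term HSCs and 146 and 140 CPM in short-term HSCs. Of 6 neutrophil and 4 megakaryocyte genes tested, 0 lay above, with 2 and 3 below. The nearest libraries of the groups were close for the monocyte-macrophage (228 and 229 CPM), neutrophil (52.8 and 56.1 CPM) and endothelial sums (334 and 321 CPM). Most of the short-term megakaryocyte sum came from Itga2b, an integrin gene, at 2.52 and 5.07 CPM in long-term HSCs and 152 and 105 CPM in short-term HSCs, whereas the platelet glycoprotein gene Gp9 was at 48.6 and 49.9 CPM against 53.8 and 52.2 CPM. The part of these cell types in the levels of Egr1, Klf2 and Nr4a2 was not tested.

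The genes most like the leading member of each family were taken from 6546 named genes with a mean log2(CPM + 1) of at least 5, by the Euclidean distance of centred log2(CPM + 1) over the 4 libraries. Nearest to Egr1 were Wdr11 (distance 0.0576), Ttpa (0.0650) and Edem2 (0.104). Wdr11, for example, was at 135 and 135 CPM in long-term HSCs and 74.5 and 89.0 CPM in short-term HSCs. Nearest to Nr4a1 were Ncoa7 (0.191), Rnf185 (0.225) and Gtpbp8 (0.235), and Ncoa7 was at 87.4 and 187 CPM against 37.3 and 92.3 CPM. Nearest to Klf6 were Rufy2 (0.0590), Ccdc163 (0.0594) and Phf7 (0.0849), and Rufy2 was at 260 and 282 CPM against 150 and 264 CPM.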

How the data were processed

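Per the labels' protocols, cDNA was made from 2000 sorted cells with the SMARTer kit, and libraries followed Illumina's procedure. The submitters' processing notes name TopHat and mm9; for the read counter, annotation, strand setting and filters, nothing is given in the sources used here. The deposited files hold a log2 value made by the authors for each of 23450 genes in each library. Low values step as whole reads scaled to a common library total (CPM): all values from 2 to 100 reads (2666 to 4217 per library, 100%) came within 0.1 of a whole number, with the scale set from the same steps. Values above the lowest fell short of that total by 288 to 578 reads. Adding 1 read to every gene would leave 13605 to 15124 reads missing. The lowest value was therefore taken as 0 or 1 read and set to 0 CPM, and other values as they are. The alternative reading, reads plus 1, was run as well.

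CPM were tested with limma 3.58.1 (trend and robust shrinkage with statmod 1.5.0) in R 4.3.3, on log2(CPM + 1) over 12608 genes (1 CPM or more in 2 or more libraries), LT-HSC against ST-HSC, with Benjamini-Hochberg adjustment over all of them and a threshold of 0.05. This scale understates fold changes of weakly read genes. The fit was also run on simulated reads with the same spread set for every gene, which does not show how well it suits these libraries. Reads come from amplified cDNA, so floors account for counting error alone. Transcript lengths were found for 96.7% of genes. The members and lists were chosen with earlier results of these data known. Named are the 9 members, of each list up to 4 tested genes with the smallest p and those at the lowest value in every library, and for the highest member of each family the 3 genes of nearest pattern. Nab2, Fos, Jun, Csf1r, Cd79b and the genes absent from HSC gates were added for their roles. Klf8, Klf12, Itga2b, Gp9, Cd3g and Hspb1 were chosen after their values were seen. Some genes that this rule names are not reported here. For the cell type lists, sums are given in place of most single genes. Alternatives were other filters, added values and scaling, the replicate number as a block, each library left out, limma-voom, no robust shrinkage and the deposited log2 values themselves.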

Additional observations from a re-analysis of the deposited data

How the results depend on the processing

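No gene, and so none of the 9 factors or of the list genes, passed the adjusted threshold under any of the 14 alternatives. The number of genes at an unadjusted p under 0.05 was 820, and went from 406 without ST2 and 526 without ST1 to 1098 without LT2. The median log2 fold change of the 6 tested factors, 0.89, ranged from 0.46 to 1.12 with 1 library left out. Egr1, Nr4a1, Nr4a2 and Klf2 stayed positive under all 14 alternatives. Klf4 reversed without LT2 (-0.33) and without ST1 (-0.09), and Klf6 without ST1 (-0.01); single omissions spanned -0.33 to 0.89 for Klf4 and -0.01 to 0.88 for Klf6; in such fits 1 group has a single library, which is assumed to vary like the others. List medians changed sign without single libraries for the further family genes (-0.40 without LT2, -0.22 without ST1), the upstream factors (-0.02 without ST1), the described targets (-0.71 without ST2) and the heat shock genes (-0.05 when LT1 or ST1 was left out); the cause was not tested. With the replicate number as a block, 0 genes passed and 887 reached the unadjusted threshold. Differences between libraries 1 and 2 correlated between the groups at 0.0511 over genes. Whether libraries of the same number share a mouse or a preparation was not tested, and a correlation over all genes cannot decide it. Reading the values as reads plus 1, an alternative added after seeing the data, gave 814 genes at the unadjusted threshold and 2.68 in place of 2.66 for Nr4a2. A count of 0 allows a level of up to 0.186 to 0.229 CPM over the libraries, for counting error only.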

Other observations

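The following values were chosen after they were seen. Within each library, the ratio of Egr1 to Fos reads, which does not depend on the library total, was 0.985 in LT1, 1.14 in LT2, 0.699 in ST1 and 0.765 in ST2. The ratio of Egr1 to Jun was 0.941 and 0.957 in long-term HSCs and 0.718 and 0.644 in short-term HSCs. Both ratios were higher in both long-term libraries. The ratio of Egr1 to its corepressor gene Nab1 ran the other way over a narrower range, at 3.45 and 3.34 in long-term HSCs and 3.92 and 3.78 in short-term HSCs.

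Klf12 and Klf8 divided by library number, and their groups overlapped. Klf12 was at 0.306 CPM in LT1 and 1.93 in ST1, against 47.6 in LT2 and 18.4 in ST2. Klf8 was at 2.22 and 1.40 CPM in the libraries numbered 1, against 35.1 and 16.0 CPM in those numbered 2.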
